A study of Mus musculus with 20 samples.

Results

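The cytosolic ribosomal protein genes encode the protein part of the ribosome, the particle that translates mRNA in the cytosol. They were chosen by symbol: 83 gene rows had a symbol of the Rpl or Rps form with a number, an ending a, x, l, l1 or al where present, or were Rplp0, Rplp1 or Rplp2. Of these, 76 had at least 5 CPM (reads per gene scaled to library size) in 2 or more of the 20 libraries and are described here, 46 of the large subunit and 30 of the small subunit, out of 24421 gene rows in all. All 76 also passed the filter on low counts that left 14792 genes for testing. The choice used a minimum level in any library and no difference between groups.

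Total RNA was sequenced from mouse motor neurons that were derived in culture from embryonic stem cells with inducible transcription factors, on day 2 of the cultures. The line NIP (labelled cranial, and known in the field for Neurog2, Isl1 and Phox2a) and the line NIL (labelled spinal, known for Neurog2, Isl1 and Lhx3) were each sampled at 0 h without treatment, and at 12 h and 36 h with 20 µM cyclopiazonic acid (CPA) or untreated. CPA blocks the calcium pump of the endoplasmic reticulum and causes stress there. Each of the 10 groups had 2 libraries, numbered 1 and 2, and the libraries with the same number are called a replicate set below. The labels do not say whether the replicates were separate cultures, so the p-values measure the spread between these libraries only. Times are those of the titles and of the RNA extraction protocol, 12 h and 36 h; the description of the treatment and the study's design name 6 h and 12 h instead. The RNA was depleted of ribosomal RNA before sequencing, so reads can come from unspliced as well as finished mRNA.

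Most mRNAs for ribosomal proteins begin with a stretch of pyrimidines (C or T in DNA), the 5′ terminal oligopyrimidine or TOP motif, through which the growth kinase mTOR and the protein Larp1 control their translation and stability together. Proteins of both subunits are made in matching amounts, and the excess is degraded. When ribosome assembly fails, Rpl5 and Rpl11 bind the ubiquitin ligase Mdm2 and release p53, and some diverged paralogs, such as Rpl22l1 and Rps27l, are known to be regulated apart from their parents.

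The 7 rows under the minimum level were Rpl3l, Rpl10l and Rpl39l, paralogs known from muscle or testis, and 4 canonical genes, Rpl26, Rpl30, Rpl34 and Rps27. Rpl26 had 0 to 3 reads a library, Rpl30 had 5 to 45, Rps27 had 8 to 38 and Rpl34 had 20 to 84. Their proteins are core parts of the ribosome, and the cause of their low counts was not tested. Reads that map to more than 1 place were left out of the counts, and ribosomal protein genes have many processed pseudogene copies. Among the members, the share of 31-base words in a gene's annotated transcripts that also occur in transcripts of another gene ranged from 1.05% to 94.1% with a median of 26.7%, against 0% to 31.8% for the 7 rows left out. The share was highest for Rpl36 (94.1%), Rpl35 (88.8%), Rpl23a (83.0%) and Rplp1 (75.1%), whose levels are the least certain. Rps4l, which the rule counts in the small subunit, is annotated in GENCODE M21 as a transcribed processed pseudogene. Genes that encode ribosomal proteins under other symbols, such as Rpsa, Rps3a1 and Fau, are not members and are given as a separate list.

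The sequence around the annotated transcription start shows what the members share beyond their name. RefSeq start windows (GRCm38.p6) matched 56 of the 76 members. The windows below are 30 bases long and lie within 50 bases of an annotated start, on the transcript strand. The longest run of at least 8 bases that are all C or T is in capitals. Windows are shown for some of the genes that lead a comparison below and some of the paralogs named below. Among those not shown are Rpl10, Rps19 and the paralog Rpl7l1, whose longest run had 7 bases. Rplp0 had no such run around its annotated start, and whether its mRNA begins there was not tested.
Rps12, chr10:23787182-23787211, minus strand: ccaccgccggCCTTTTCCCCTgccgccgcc
Rplp2, chr7:141447636-141447665, plus strand: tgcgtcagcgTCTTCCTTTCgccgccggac
Rps6, chr4:86857349-86857378, minus strand: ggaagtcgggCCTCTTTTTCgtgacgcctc
Rpl14, chr9:120571501-120571530, plus strand: agggcgggCCCTCTCTCTTCTCgctgagcg
Rpl15, chr14:18270968-18270997, minus strand: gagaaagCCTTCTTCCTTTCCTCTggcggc
Rpl22l1, chr3:28805499-28805528, plus strand: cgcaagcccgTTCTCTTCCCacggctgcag
Rpl36al, chr12:69184020-69184049, minus strand: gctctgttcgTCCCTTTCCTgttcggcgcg
Rps27l, chr9:66946063-66946092, plus strand: actcctctccaCTCCTCCCCgccgcctcta
Rplp0, chr5:115559466-115559495, plus strand: aggaccgcctggttctcctataaaaggcac
Of the 56 members, 48 (85.7%) had a run of at least 8 bases that are C or T within 50 bases either side of a start, against 36.8% of the 11030 tested genes with a window. A run need not lie at the start: it begins at base 29 of the annotated transcript in Rpl36al and at base 41 in Rpl10. These shares are therefore not shares of mRNAs that begin with a TOP motif. On the opposite strand the shares were 28.6% for the members and 40.0% for the tested genes. The run was present in 31 of 35 large subunit genes and 17 of 21 small subunit genes. The letters CGGAAG, the core of sites for Ets family factors, occurred on either strand of the whole window, 250 bases before to 50 after a start, in 66.1% of the members and 32.7% of the tested genes. A match of letters is not a tested site. Rpl22l1, a paralog that moved apart from the rest below, also carries a run. The run of the paralog Rps27l has 9 bases and lies before the annotated start, so outside the annotated transcript. Around another annotated start of Rps27l the longest run had 5 bases.

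Gene reads ranged from 7996454 to 30321152 a library. Rn45s, the ribosomal precursor gene, took 5.18% to 38.6% of them, and over 30% in 2 libraries, the set 2 library of NIL at 36 h with CPA and the set 1 library of NIP at 36 h untreated. All listed markers of neurons (18 of 18) and of motor neurons (11 of 11) passed the filter, with summed levels of 4595 to 17840 CPM and 591.1 to 2361 CPM. Markers of pluripotent cells (16 of 16), of proliferation (20 of 20) and of endoderm and endothelium (13 of 13) passed as well, with summed levels of 130.2 to 1052 CPM, 103.8 to 1152 CPM and 425.7 to 32083 CPM. In bulk RNA, fewer cells of a type and less RNA per cell cannot be told apart.

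The 76 genes took 1.29% to 3.92% of gene reads, with a median of 2.32%. With Rn45s left out of the total they took 1.66% to 4.55%, with a median of 2.69%. The lowest library was then set 1 of NIL at 12 h untreated. The set 1 library of NIP at 36 h untreated, lowest with Rn45s counted, had 2.11%. By library, the large subunit genes took 0.819% to 2.41% and the small subunit genes 0.476% to 1.51%. Per kilobase of merged exons, the member medians over the 20 libraries spanned 5.14 to 564 CPM with a median of 155. Rplp1, which encodes a protein of the acidic stalk, was at the top with 564 CPM per kilobase. Rplp1 is also among the genes with the most words shared with other genes (75.1%). Of the other stalk genes, Rplp0 had 458 and Rplp2 had 72.1 CPM per kilobase. The scale merges the exons of all annotated transcripts, 499 bases for Rplp1 and 2072 for Rplp2, so the order of genes depends on the annotation. These paralogs were below their parents on this scale: Rpl22l1 had 5.14 and its parent Rpl22 had 48.5, Rpl7l1 had 13.0 and Rpl7 had 149, and Rps4l had 79.7 and Rps4x had 246. Rps27l had 67.1 CPM per kilobase, but its parent Rps27 is 1 of the 4 genes that the counts nearly miss.

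**Figure D1:**
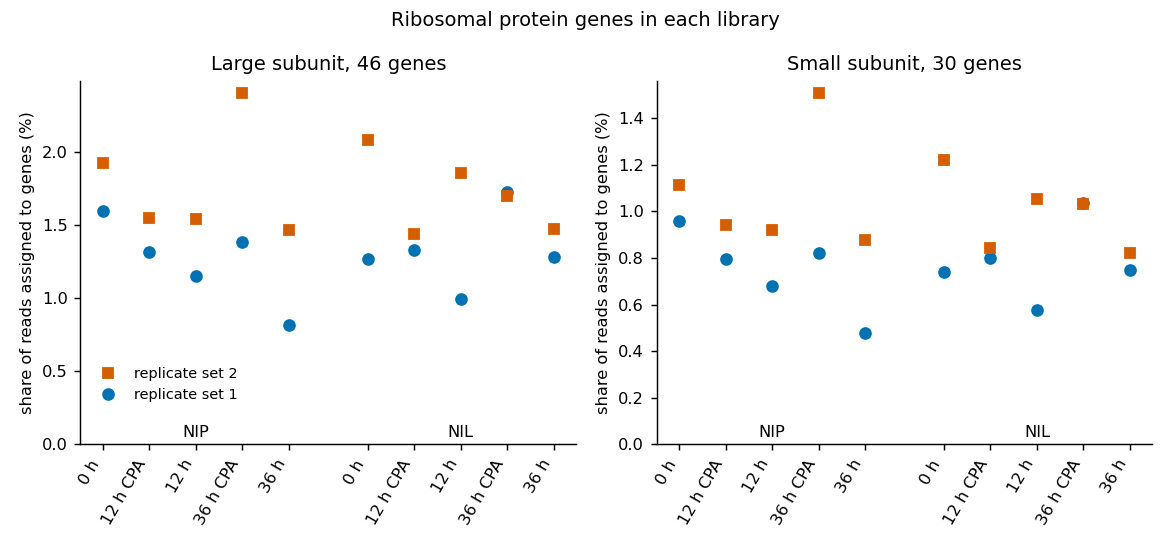
Share of reads assigned to genes (%) taken by the 46 large subunit genes (left) and the 30 small subunit genes (right) in each library; squares are replicate set 2 and circles set 1, with NIP groups left of NIL groups. The highest value in both panels is the set 2 library of NIP at 36 h with CPA (2.41% and 1.51%), and the lowest is the set 1 library of NIP at 36 h untreated (0.819% and 0.476%), which also had the highest Rn45s share.

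The members varied together. The SD of log2 CPM over the 20 libraries ranged from 0.19 to 0.67 among the members with a median of 0.38, and after the median of all members was subtracted in each library it was 0.092 to 0.556 with a median of 0.179. Rpl17 (0.096) and Rpl32 (0.097), structural proteins of the large subunit, were among the tightest to the rest. Rpl22l1 was the loosest (0.556), followed by Rpl37a (0.412), Rpl35a (0.350), Rpl14 (0.333) and Rps4l (0.326). Libraries share scaling and depth, so this co-variation is a description.

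Most calls in these genes were between the replicate sets, a comparison that pools all 10 groups. Its counts of calls cannot be ranked against those for CPA, where each group had 2 libraries. In simulated counts, 97% of genes changed 2-fold were recovered between the sets, and 28% for CPA in NIL at 36 h. The CPA counts had the spread of the fit without the replicate set (coefficient of variation 27.5%). The counts for the sets had that of the fit with it (15.7%). These 2 shares thus differ by model as well as by number of libraries. With the group kept as a covariate, 72 of 76 members rose in set 2 over set 1 and 0 fell, by edgeR's quasi-likelihood test with Benjamini-Hochberg adjusted p under 0.05, which called 49.2% of all genes and 24.7% as higher and 24.4% as lower in set 2. The call held for 43 of 46 large subunit genes and 29 of 30 small subunit genes. The median log2 change was 0.44 for the large and 0.45 for the small subunit, and 0.00 over all genes tested. Within each of the 10 groups the members' median was higher in set 2, by 0.08 (NIP at 12 h with CPA) to 0.88 (NIL at 12 h untreated) on the log2 scale. The members took 2.28% to 3.92% of gene reads in set 2 libraries and 1.29% to 2.77% in set 1 libraries, so the ranges overlap across groups.

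The acidic stalk, which recruits the elongation factors, was among the strongest. Rplp1 averaged over groups had a log2 change of 0.85 ± 0.14 (SE, adjusted p = 0.000235), Rplp2 0.74 ± 0.10 (adjusted p = 2.9e-05), Rplp0, on which the stalk is built, 0.67 (adjusted p = 0.000143), and Rpl12, at the stalk base, 0.55 (adjusted p = 0.000301). In untreated NIL cultures at 12 h, for example, Rplp1 had 404 CPM in the set 2 library and 139 CPM in the set 1 library. All 10 groups had more Rplp1 in set 2. Of the genes with the largest changes, Rps14 and Rps21 of the small subunit rose by 0.83 and 0.75, and Rpl13 of the large subunit rose by 0.69 (adjusted p = 1.41e-05).

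Rpl5 and Rpl11 form a particle with ribosomal RNA that can bind Mdm2. Rpl5 rose by 0.25 (adjusted p = 0.016) and Rpl11 by 0.29 (adjusted p = 0.0083), and Rps6, whose protein is the phosphorylated target of the S6 kinases, by 0.31 (adjusted p = 0.0042). Rps27l, a p53 target in mouse cells, rose by 0.58 (adjusted p = 8.46e-05). The 4 members that were not called were Rpl35a (0.51 ± 0.23, adjusted p = 0.0882), Rpl36al (0.22, adjusted p = 0.065), Rps4l (0.05, adjusted p = 0.54) and Rpl22l1 (-0.16, adjusted p = 0.37), which were chosen for mention because they missed the threshold. Rpl22l1, a paralog that can take the place of Rpl22, had the lowest estimate, and its levels in sets 2 and 1 overlapped.

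**Figure D2:**
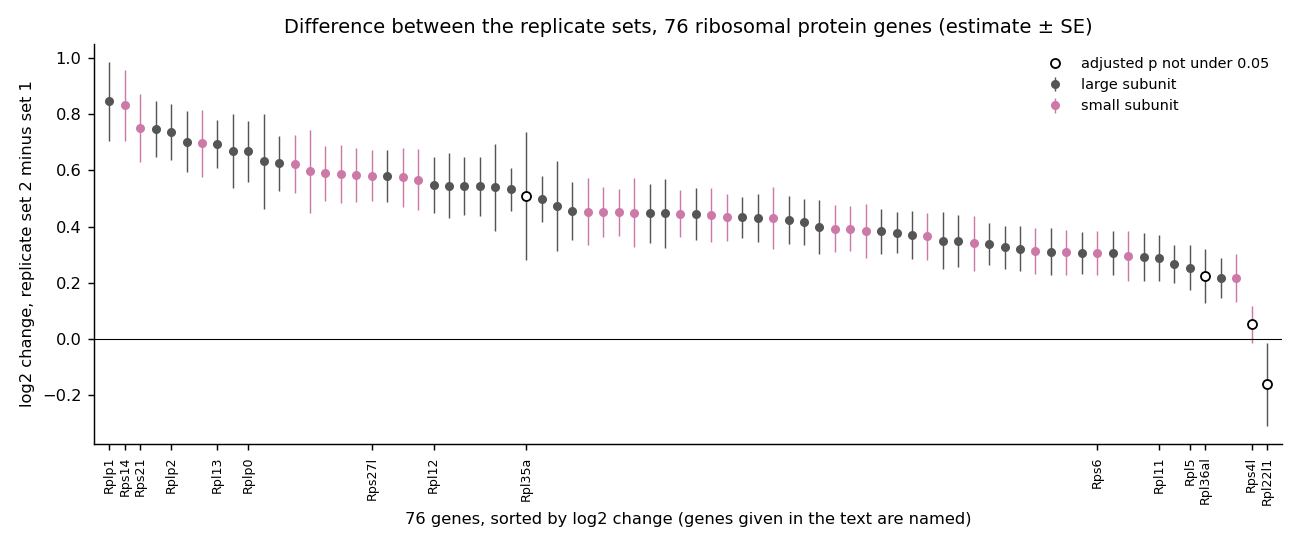
Log2 change of each of the 76 genes in replicate set 2 over set 1, with the group as covariate (points, bars ± SE), sorted by size, with the names of genes given in the text; dark grey points are large subunit and pink points small subunit, and open points are the 4 genes not called. The estimates run from 0.85 for Rplp1 to -0.16 for Rpl22l1 with large and small subunit genes mixed along the order.

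The set difference did not come alone. In fits chosen after seeing the data, within each line, the test called 40 of 76 members higher in the NIP libraries, with 27.6% of all genes called there, and 71 of 76 in the NIL libraries, with 48.7% called; 0 members were lower in either. Marker genes of other cells differed between the sets as well. Markers of proliferation were higher in set 2 for 20 of 20 genes (median 1.36), markers of pluripotent cells for 15 of 16 (median 2.24), and markers of endoderm and endothelium for 12 of 13 (median 1.92, 1 lower), while 14 of 18 neuronal markers were lower (median -0.40). The Rn45s share had a median of 11.8% in set 2 and 8.03% in set 1. The HTSeq line for multi-mapped reads held a median of 38.6% of all counts in set 2 and 26.6% in set 1, gene and summary lines together. The 1077 other tested genes with under 1500 bases of merged exons had a median log2 change of 0.15 between the sets, with 65.6% positive. By this measure, which merges the exons of all annotated transcripts of a gene, 24 of the 76 members are under that length. The part of these values in the change of the ribosomal protein genes was not tested.

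Other genes of the translation machinery were taken from lists. Between the sets the test called 24.7% of all genes as higher and 24.4% as lower, and the biogenesis list was not above these shares. The 4 ribosomal protein genes outside the symbol pattern all rose in set 2, among them Rpsa (0.59), Fau (0.55) and Rps3a1 (0.33). Of 21 tested translation factors and other mRNAs of the TOP class, 10 rose and 1 fell, with a median of 0.14; Gnb2l1, which encodes the ribosome-bound scaffold Rack1, rose by 0.58, elongation factor Eef2 rose by 0.37, and Hnrnpa1 fell by 0.53. Of 33 genes for ribosome biogenesis in the nucleolus, 8 rose and 3 fell, with a median of 0.02, among them Tcof1 (0.46) and Rrp9 (0.42) higher, and Dkc1 (-0.30) lower. Of 77 mitochondrial ribosomal protein genes, 29 rose and 4 fell, with a median of 0.14.

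In the 36 h comparison of CPA with untreated cultures, all but 1 of the 76 members had a higher mean with CPA in each line, and 0 members passed the test in either (0 of 76 in NIP, where 2.33% of all genes were called, and 0 of 76 in NIL, where 0.98% were called). The median log2 change was 0.43 in NIP (0.39 for the large and 0.47 for the small subunit) and 0.50 in NIL (0.47 for the large and 0.57 for the small subunit), against 0.03 and 0.01 over all genes tested. At an unadjusted p under 0.05, 2 members in NIP and 7 in NIL were higher and 0 were lower. In NIP, 62 members were higher in both replicate sets, and in NIL 69 were, but the size differed by set: the median in NIP was 0.66 in set 2 and 0.15 in set 1, and in NIL 0.62 in set 2 and 0.32 in set 1.

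With the replicate set as a block, 1 of 76 members rose in NIP, where 10.3% of all genes were called (5.1% as higher), and 18 of 76 rose in NIL, where 18.2% were called (7.25% as higher). The 18 were 8 large subunit genes (Rpl4, Rpl10, Rpl14, Rpl23, Rpl28, Rpl31, Rplp0 and Rplp2) and 10 small subunit genes (among them Rps3, Rps6, Rps12, Rps20, Rps24, Rps27l and Rps29). The gene called in NIP was Rps27l. DESeq2 without the block called 1 member in NIL, Rpl10, with 4.81% of all genes called, and 0 in NIP. A fit of the NIP libraries alone called 1 member in NIP, with 3.48% of all genes called.

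Among the genes of the small subunit, Rps12 had the largest change in NIL. In NIL with CPA it had 564 CPM in set 2 and 343 CPM in set 1, against 231 and 220 CPM untreated, so the groups did not overlap (log2 change 1.01 ± 0.37, adjusted p = 0.20; with the block 0.96, adjusted p = 0.014). In NIP with CPA it had 652 CPM in set 2 and 327 CPM in set 1, against 327 and 248 CPM untreated, and the lower CPA library was at the level of the higher untreated one (0.77 ± 0.37, adjusted p = 0.40). The Rps12 protein is known in Drosophila for its part in cell competition.

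Rps27l, the p53-responsive paralog of Rps27, had the largest change in NIP. With CPA it had 97.2 CPM in set 2 and 50.1 CPM in set 1, against 42.2 and 32.7 CPM untreated (log2 change 0.97 ± 0.41, adjusted p = 0.32; with the block 0.92, adjusted p = 0.0077). In NIL with CPA it had 118 CPM in set 2 and 72.5 CPM in set 1, against 67.4 and 46.1 CPM untreated (adjusted p = 0.020 with the block). In both lines each CPA library was above both untreated libraries.

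Rps19, a gene known from inherited anaemia, rested on a single library in NIP. With CPA it had 693 CPM in set 2 and 228 CPM in set 1, against 295 and 185 CPM untreated, so the groups overlapped (log2 change 0.94 ± 0.51, adjusted p = 0.47). Without the set 2 CPA library its log2 change was -0.07. Rps20, which lies at the head of the small subunit and was picked after its values were seen, had 483 CPM in set 2 and 248 CPM in set 1 in NIL with CPA, against 225 and 195 CPM untreated, without overlap (0.80 ± 0.43, adjusted p = 0.364).

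In the large subunit, Rplp0 and Rpl10 led in NIL. Rplp0 had 1339.7 CPM in set 2 and 780 CPM in set 1 with CPA, against 699 and 412 CPM untreated, without overlap (0.93 ± 0.48, adjusted p = 0.34; with the block adjusted p = 0.016). Rpl10, one of the last proteins to join the large subunit, had 816 CPM in set 2 and 656 CPM in set 1 with CPA, against 412 and 375 CPM untreated (0.90 ± 0.26, adjusted p = 0.11; with the block adjusted p = 0.0036). The CPA libraries of Rpl10 were well apart from the untreated ones in both sets. In NIP, Rpl36al had a log2 change of 0.70 (adjusted p = 0.25).

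Other members had estimates near 0. Rpl22l1 had -0.27 in NIL and 0.03 in NIP, Rps4l 0.07 in NIL and 0.03 in NIP, and Rpl3, which shapes the peptidyl transferase centre, 0.12 in NIL and -0.01 in NIP. Rpl15, a protein of the large subunit, had 0.11 in NIL. Over the 56 members with a window, the median change in NIP was 0.39 for the 48 with a run and 0.48 for the 8 without, and in NIL 0.49 with a run and 0.54 without.

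**Figure D3:**
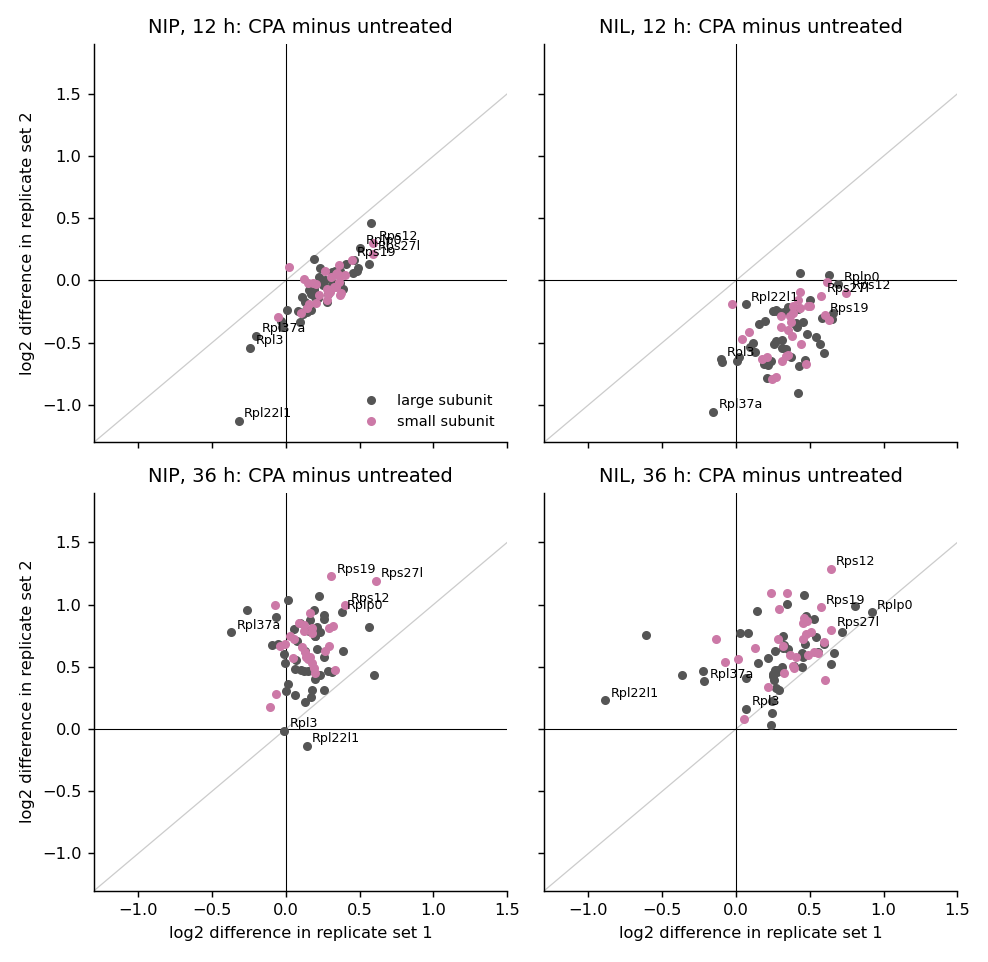
Log2 difference of CPA over untreated for each of the 76 genes, in replicate set 1 (x axis) and set 2 (y axis), NIP left and NIL right, 12 h above and 36 h below; dark grey is large and pink small subunit, and the diagonal line marks equal differences. At 36 h most genes lie above 0 on both axes, with medians of 0.66 in set 2 and 0.15 in set 1 in NIP and 0.62 in set 2 and 0.32 in set 1 in NIL, while at 12 h in NIL most lie to the right and below 0.

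The 36 h values depended on the set 2 CPA libraries. Without the set 2 CPA library the members' median was -0.01 in NIP and 0.16 in NIL, and without the set 1 CPA library it was 0.72 in NIP and 0.76 in NIL. In NIL the set 2 CPA library is also the one with 38.3% of gene reads in Rn45s, and it had the highest summed level of the endoderm and endothelium markers, 32083 CPM against 425.7 to 18049 CPM in the other 19 libraries, and the lowest of the neuronal markers, 4595 CPM. Across the 36 h comparison, endoderm and endothelium markers had a median log2 change of 1.04 in NIP and 0.92 in NIL with 13 of 13 positive in each, and neuronal markers -0.54 in NIP and -0.99 in NIL with 0 of 18 positive in each (2 called lower in NIL, 17 with the block, and 8 in NIP with the block). Other short genes had positive medians too: 1077 tested genes with under 1500 bases of merged exons, members excluded, had a median of 0.15 in NIP and 0.21 in NIL, with 61.6% and 65.6% positive. The part of these in the change of the members was not tested.

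The introns of the small nucleolar RNA host genes release the guide RNAs for ribosomal RNA modification. Of 7 tested, 2 rose with CPA in both lines at 12 h, where 4.71% (NIP) and 2.21% (NIL) of all genes were called. There Snhg12 had 31.8 CPM in set 2 and 24.7 CPM in set 1 in NIP with CPA, against 5.48 and 4.50 CPM untreated (log2 change 2.50, adjusted p = 0.0027), and 19.7 CPM in set 2 and 19.6 CPM in set 1 in NIL with CPA, against 5.81 and 3.43 CPM untreated (2.12, adjusted p = 0.010). Snhg1 rose by 1.70 in NIP (adjusted p = 0.0081) and by 1.85 in NIL (adjusted p = 0.0071) at 12 h. At 36 h the changes in NIL were 1.87 for Snhg12 (adjusted p = 0.046) and 1.68 for Snhg1 (adjusted p = 0.036), and those in NIP were 1.33 for Snhg12 (adjusted p = 0.0947), which the block brought to 1.29 (adjusted p = 0.0065), and 0.70 for Snhg1 (adjusted p = 0.341), which passed in neither fit. With the block, Snhg5 also rose at 12 h in NIP (1.01, adjusted p = 0.031) and in NIL (1.22, adjusted p = 0.018), and at 36 h in NIL (1.09, adjusted p = 0.024), where Snhg8 rose too (1.21, adjusted p = 0.0050). Neither passed without it. In each of the 4 CPA comparisons all 7 tested host genes had a positive change. With any 1 of the 4 libraries left out, the changes stayed positive, from 1.24 to 2.25 in NIL at 36 h and from 1.32 to 2.68 at 12 h, but most calls were lost. Snhg1 in each line at 12 h, Snhg12 in NIL at 12 h and both genes in NIL at 36 h passed in 1 of 4 such fits, and Snhg12 in NIP at 12 h in 3 of 4. These fits had no block. Without the set 2 CPA library, the changes in NIL at 36 h were 1.39 for Snhg12 (adjusted p = 0.478) and 1.24 for Snhg1 (adjusted p = 0.367).

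Few genes of the translation and biogenesis lists passed with CPA without the block. That fit called 4.71% (NIP) and 2.21% (NIL) of all genes at 12 h, and 2.33% and 0.98% at 36 h. With the block the shares were 14.1% and 7.94% at 12 h, and 10.3% and 18.2% at 36 h. Among 21 translation factors and other TOP class mRNAs, Eif4a2, an initiation helicase, fell by 0.83 in NIP at 12 h (adjusted p = 0.035), and without the block no other gene of the list passed in any of the 4 comparisons. With the block, Eif4a2 also fell in NIL at 12 h (-0.57, adjusted p = 0.048) and in NIP at 36 h (-0.55, adjusted p = 0.04998). Hnrnpa1, an RNA-binding protein gene, fell with the block at 12 h in NIP (-0.70, adjusted p = 0.0446) and in NIL (-0.78, adjusted p = 0.0439). Gnb2l1 rose with the block in NIL at 36 h (0.63, adjusted p = 0.046). Tpt1, a growth-related mRNA of the TOP class, had a log2 change of 1.05 in NIL at 36 h (adjusted p = 0.11; with the block adjusted p = 0.0031). Among 33 biogenesis genes, 1 rose in NIP at 12 h (Nop14, 0.90, adjusted p = 0.018) and 1 in NIP at 36 h (Ltv1, a small subunit assembly factor, 0.85, adjusted p = 0.048). With the block, 6 biogenesis genes rose in NIP at 36 h, where 5.1% of all genes were called as higher. They were Rrp12, Ltv1, Mybbp1a, Utp20, Gnl3 and Tcof1. In NIL at 36 h, Nle1 rose (0.64, adjusted p = 0.0464) and Bop1, a factor of large subunit assembly, fell (-0.43, adjusted p = 0.0444) with the block. At 12 h, Bop1 fell in NIP (-0.55, adjusted p = 0.0135) and Nop14 rose in NIL (0.54, adjusted p = 0.0448) with the block. In the p53 target list, the block called Cdkn1a (0.85, adjusted p = 0.0036), Mdm2, Phlda3, Aen, Bax and Pmaip1 higher in NIP at 36 h. In NIL at 36 h it called Mdm2, Phlda3, Bbc3 and Btg2 higher. No p53 target was called lower there, and those named did not pass without it. Rps3a1 rose with the block in NIL at 36 h (0.60, adjusted p = 0.033). Among called genes of the mitochondrial list, Mrps18b rose with the block at 36 h in NIP (0.89) and in NIL (0.85).

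**Figure D4:**
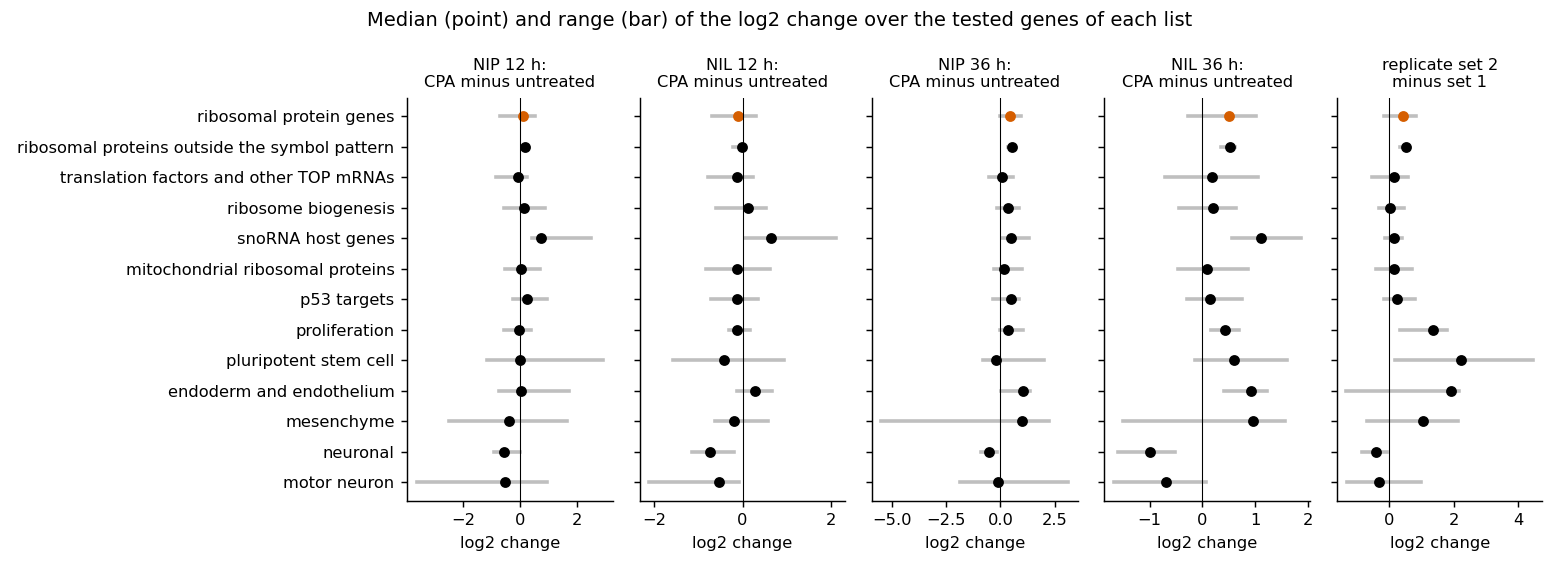
Median (point) and lowest to highest (bar) log2 change over the tested genes of each list, in the 4 CPA comparisons and between the replicate sets, with the 76 ribosomal protein genes in orange; each panel has its own x axis. The ribosomal protein median is 0.43 (NIP) and 0.50 (NIL) at 36 h, 0.09 (NIP) and -0.11 (NIL) at 12 h and 0.45 between the sets, and the median of the neuronal list lies below 0 in all 5 panels.

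At 12 h of CPA the ribosomal protein genes had no common direction across sets. 0 of 76 members passed in NIP, with 4.71% of all genes called, and 0 of 76 in NIL, with 2.21% called; the block did not change this, with 14.1% and 7.94% called, and no member had an unadjusted p under 0.05 without it. The median was 0.09 in NIP, where set 2 gave -0.05 and set 1 gave 0.27. In NIL it was -0.11, with -0.39 in set 2 and 0.35 in set 1. Leaving out the set 2 untreated library of NIL moved the median to 0.44, and leaving out the set 1 one moved it to -0.48; the corresponding medians in NIP were 0.31 and -0.10. The 2 untreated NIL libraries at 12 h had the widest gap between the sets of any group.

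Some genes are named at 12 h for the size of their estimates or their role, and none of them passed. Rpl37a, a small zinc-binding protein, had the lowest estimate in NIL, with 159 CPM in set 2 and 146 CPM in set 1 with CPA, against 331 and 162 CPM untreated (-0.69 ± 0.53, adjusted p = 0.67). Rpl22l1 had the lowest in NIP, with 6.08 CPM in set 2 and 10.2 CPM in set 1 with CPA, against 13.9 and 12.9 CPM untreated, without overlap (-0.72 ± 0.36, adjusted p = 0.34). Rpl3 was lower in both lines, by -0.41 in NIP and -0.42 in NIL, and neither passed (adjusted p = 0.59 and 0.66). Rps12, Rpl10 and Rplp0 had positive estimates in both lines, from 0.23 to 0.44.

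The CPA response was compared between the lines through the interaction. 0 of 76 members differed at 12 h and 0 at 36 h, and 0 of all genes tested passed at either time without the block (0% and 0%; with the block 0% at 12 h and 0.128% at 36 h), with 349 and 651 genes at an unadjusted p under 0.05 and 0 members among them. The members' median difference, NIP minus NIL, was 0.18 at 12 h and -0.06 at 36 h. The median SE of a member's difference was 0.50 on the log2 scale.

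Between the lines, the median member differed little, by 0.09 at 0 h, -0.03 at 12 h and 0.01 at 36 h untreated, and by 0.19 at 12 h and -0.03 at 36 h with CPA (NIP minus NIL). 0 of 76 members were called in any of the 5 comparisons, where 12.5%, 12% and 11.6% of all genes were called untreated at 0, 12 and 36 h, and 10.2% and 16.9% with CPA at 12 and 36 h. The sets disagreed at 0 h, where the median was -0.12 in set 2 and 0.46 in set 1. They also disagreed at 12 h untreated, where the median member level in set 1 was 217 CPM in NIP and 166 CPM in NIL. In set 2 it was 289 CPM in NIP and 321 CPM in NIL. At 36 h with CPA it was 266 CPM in NIP and 290 CPM in NIL in set 1, and 486 and 468 CPM in set 2.

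Rpl14 had the same direction in all 5 comparisons. At 0 h it had 416 CPM in set 2 and 347 CPM in set 1 in NIP, against 266 and 201 CPM in NIL. At 12 h untreated it had 392 and 284 CPM in NIP, against 257 and 156 CPM in NIL, and with CPA 348 and 345 CPM in NIP, against 216 and 195 CPM in NIL. At 36 h it had 306 and 242 CPM in NIP untreated, against 191 and 179 CPM in NIL, and with CPA 420 and 300 CPM in NIP, against 305 and 224 CPM in NIL. NIP libraries lay above NIL libraries without overlap in each group but the last, where the lower NIP library fell just under the higher NIL one. The log2 differences were 0.71 at 0 h, 0.71 at 12 h, 0.57 at 36 h, 0.75 at 12 h with CPA and 0.44 at 36 h with CPA, with adjusted p of 0.11, 0.11, 0.20, 0.098 and 0.27 without the block and 0.0036, 0.0031, 0.018, 0.0024 and 0.043 with it. Without the set 2 NIL library at 12 h untreated, Rpl14 was the 1 member called at that time (1.09, adjusted p = 0.0453), with 7.44% of all genes called. Rpl14 (chr9:120571444-120574654, plus strand, GENCODE M21 on GRCm38) encodes a protein of the large subunit.

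Some paralogs had estimates that differed between the lines, in both directions, and none passed without the block. Rpl22l1 had 14.9 CPM in set 2 and 24.1 CPM in set 1 in NIP at 0 h, against 13.2 and 10.2 CPM in NIL, and 13.9 and 12.9 CPM in NIP at 12 h untreated, against 6.39 and 7.91 CPM in NIL (0.89 ± 0.37, adjusted p = 0.14; with the block adjusted p = 0.049). Rps27l had 42.2 and 32.7 CPM in NIP at 36 h untreated, against 67.4 and 46.1 CPM in NIL (-0.59, adjusted p = 0.40; with the block adjusted p = 0.037), and Rpl7l1, a paralog of Rpl7 found in the nucleolus, had 36.1 and 27.6 CPM in NIP, against 49.5 and 38.4 CPM in NIL (-0.46, adjusted p = 0.34; with the block adjusted p = 0.046). Rpl10 at 0 h had 0.49 (adjusted p = 0.27; with the block 0.038). With the block, the members called were 2 at 0 h (26.3% of all genes), 2 at 12 h (27.9%), 3 at 36 h (28.8%), 1 at 12 h with CPA (26.7%) and 1 at 36 h with CPA (37.5%), all shares below the background.

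**Figure D5:**
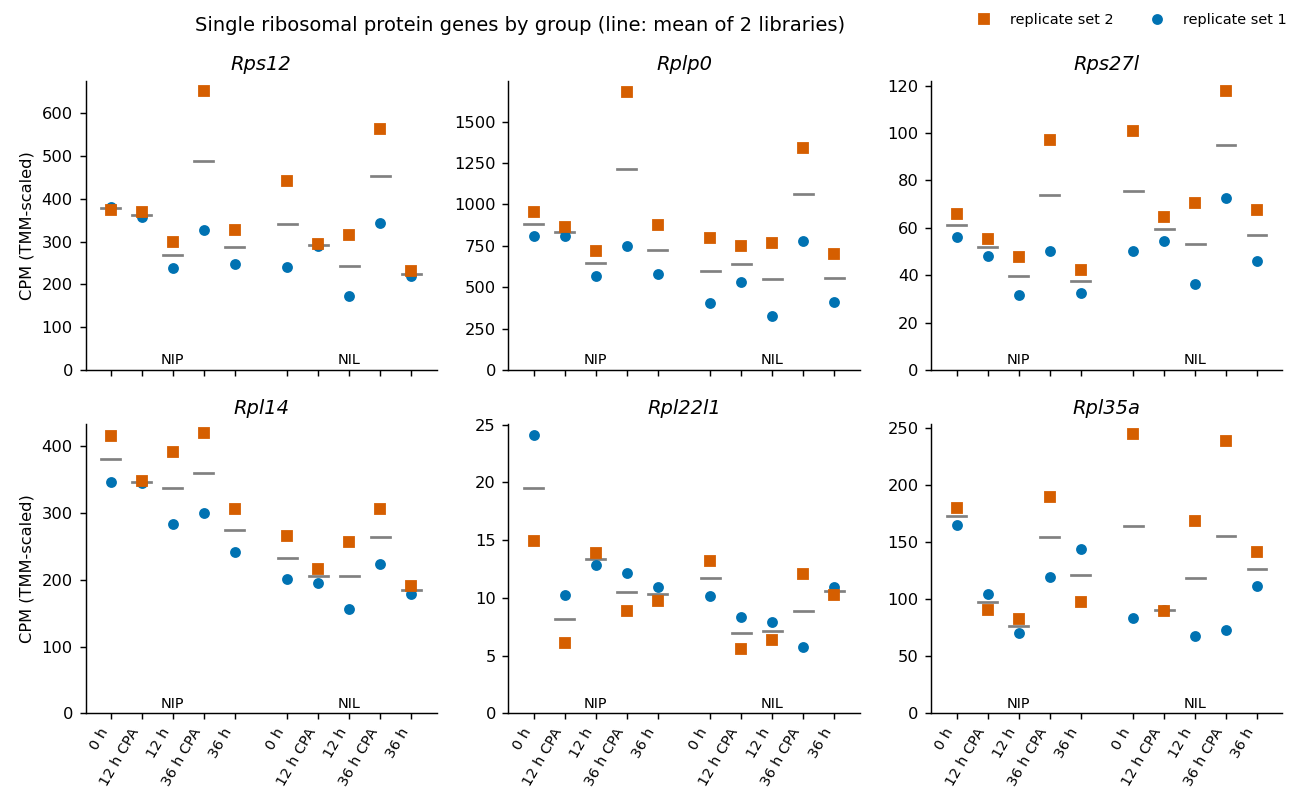
CPM (TMM-scaled) of Rps12, Rplp0, Rps27l, Rpl14, Rpl22l1 and Rpl35a in every library, squares for replicate set 2, circles for set 1 and a line for the mean of 2 libraries, NIP groups left of NIL groups and CPA left of untreated at each time. Rpl14 runs from 242 to 420 CPM in NIP and from 156 to 305 CPM in NIL, and Rps12 and Rplp0 are highest in the set 2 libraries at 36 h with CPA.

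Without treatment, the members were lower at the later times. In NIP, all 76 members had a lower mean at 12 h and at 36 h than at 0 h, and 76 of 76 were lower in both sets, with medians of -0.43 at 12 h and -0.41 at 36 h. In NIL, 76 members had a lower mean at 12 h and 74 at 36 h, with medians of -0.30 at both times, and the sets differed at 36 h, with -0.45 in set 2 and 0.00 in set 1. 0 of 76 members passed in any of the 4 comparisons, where 0% (12 h) and 1.29% (36 h) of all genes were called in NIP and 0% (12 h) and 0.027% (36 h) in NIL; 2 and 3 members in NIP and 2 and 1 in NIL had an unadjusted p under 0.05. The comparisons within a line share their 0 h libraries. In NIL the medians reversed to 0.03 at 12 h and 0.11 at 36 h without the set 2 library of 0 h, and to 0.08 at 12 h without the set 1 library of 12 h.

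With the block, 5 members were lower at 36 h in NIP, where 9.09% of all genes were called and 4.4% as lower: Rps27l (-0.72), Rpl21 (-0.63), Rpl8 (-0.63), Rps27a (-0.62) and Rpl7l1 (-0.57). Rps27a, made as a fusion with ubiquitin, had 275 CPM in set 2 and 229 CPM in set 1 at 36 h, against 390 and 377 CPM at 0 h, without overlap. Rpl22l1 had the lowest estimate without the block, with 9.72 CPM in set 2 and 11.0 CPM in set 1 at 36 h, against 14.9 and 24.1 CPM at 0 h (-0.92 ± 0.36, adjusted p = 0.26). Rpl35a had the lowest at 12 h in NIP, with 82.5 CPM in set 2 and 70.7 CPM in set 1, against 180 and 165 CPM at 0 h (-1.17 ± 0.56, adjusted p = 1). Proliferation markers had lower estimates at 36 h in NIP as well, with 0 of 20 positive, a median of -0.74 and 0 called (4 with the block), and biogenesis genes had a median of -0.37 with 0 of 33 positive and 2 called lower (5 with the block). Mitochondrial ribosomal protein genes had a median of -0.35 with 2 of 77 positive and 0 called (6 lower with the block). Short genes other than the members had a median of -0.24 at 12 h and -0.15 at 36 h in NIP. The part of these in the change of the members was not tested.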

How the data were processed

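Read counts per gene were deposited by the authors for 20 libraries, whole numbers for 24421 gene symbols and 5 HTSeq summary lines, which stayed out of library sizes. Per the submitters' processing notes, the tools named are HTSeq 0.6.1p1, Picard, Bowtie2 2.3.2 and TopHat2 2.1.1, with the build GRCm38 (mm10); strand setting and annotation release are not given in the sources used here, so antisense and overlapping genes cannot be separated. HTSeq leaves out multi-mapped reads, whose summary line held 18.2% to 52.6% of all counts, gene and summary lines together. The summary line for no gene held 7.77% to 18.7% of all counts and the ambiguous one 0.156% to 0.458%.

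Genes were filtered with filterByExpr, scaled by TMM, and tested with edgeR 4.0.16 (R 4.3.3) in a quasi-likelihood model with 1 mean per group over all 20 libraries, robust estimates and Benjamini-Hochberg adjustment over 14792 genes at 0.05; the biological coefficient of variation was 27.5% with 10 residual degrees of freedom. SE is the log2 change divided by the root of F. CPM uses scaled library sizes. The set comparison used group and replicate number as terms. The replicate numbers come from the titles. Deviations correlated in 45 of 45 pairs of groups (r 0.29 to 0.82, median 0.52), so the numbers pair the libraries. The fit with a replicate block (coefficient of variation 15.7%, 9 degrees of freedom) is given where it changes a call. This covers members, and the translation, biogenesis and host gene lists with CPA. For the other lists, results with the block are given in part. No 2 libraries of a group were copies (chi-square per degree of freedom 30.1 to 316). The fit was tested on simulated counts. For CPA in NIL at 36 h, 28% of genes changed 2-fold and 87% of genes changed 4-fold were recovered, with 4 false calls. In the set comparison 82% of genes changed 1.4-fold were recovered, with 7 false calls. The CPA simulation used the spread of the fit without the block and held no difference between the sets, unlike the real libraries. The set simulation used the spread of the fit with replicate number as a term. Alternatives were RLE scaling, TMM without the members and Rn45s, no filter, DESeq2 1.42.0, other membership levels, 1 line in the fit, leaving out libraries over 30% Rn45s and each library in turn. Exon lengths, transcript words and positions came from GENCODE M21 on GRCm38, and start windows from RefSeq. Members, lists and tests were chosen with earlier results of these data known. Named genes are the 3 highest and 3 lowest changes and the 3 smallest p of calls in each direction per comparison and genes of set roles; those named for a result with the block were chosen after their values were seen.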

Additional observations from a re-analysis of the deposited data

How the results depend on the processing

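With the replicate block, the count of called members was 18 for CPA in NIL at 36 h, 1 for CPA in NIP at 36 h, and 5 for 36 h against 0 h in untreated NIP. For NIP against NIL it was 2 at 0 h, 2 at 12 h, 3 at 36 h, 1 at 12 h with CPA and 1 at 36 h with CPA, against 0 without the block in each of these, and the block changed no other count. DESeq2 called 1 member for CPA in NIL at 36 h, and the fit of 1 line alone called 1 for CPA in NIP at 36 h. In the NIP libraries alone, an alternative chosen after seeing the data, 40 members were called between the sets, and Rps4l reversed to -0.0224 there, as Rpl22l1 did to 0.0757 in the NIL libraries alone; the cause was not tested. Leaving out 1 library at a time gave 0 to 1 called members for NIP against NIL at 12 h, where the 1 came without the set 2 NIL library, and 69 to 73 between the sets. Rps19 with CPA in NIP at 36 h ranged from -0.0736, without the set 2 CPA library, to 1.504, without the set 1 CPA library. Rps24, called between the sets, lost its call under 2 planned settings, the 2 fits of 1 line and 12 of the fits that left out a library. No scaling moved the median of all genes by more than 0.0646 on the log2 scale. Depth was 7996454 gene reads or more; with 2 libraries a group, the spread between libraries limits the tests.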
